A study of Mus musculus with 15 samples.

Results

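Zinc transporter genes are described here in sorted nuclei of the ventral tegmental area, before, during and after cocaine self-administration by mice. The 10 genes were chosen by symbol from a count table of 35976 genes. They are Slc39a4, Slc39a1, Slc39a3, Slc39a6, Slc39a7, Slc39a10 and Slc39a14 of the ZIP family, and Slc30a1, Slc30a3 and Slc30a9 of the ZnT family. Slc39a4 was selected on its higher level in dopaminergic than in other nuclei of food-trained mice in these same libraries, and the rest as further zinc transporters. Values from that contrast are therefore a description for all 10 genes: no p is given for them, and counts of calls from the fit over all genes stand beside the background share only.

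The mice were male, 8 to 12 weeks old and heterozygous for the DAT-Cre allele (B6.SJL-Slc6a3tm1.1(cre)Bkmm/J), in which Cre is expressed from the dopamine transporter locus Slc6a3. Every mouse, controls included, carried that allele and received AAV5-DIO-KASH-HA in the ventral tegmental area, which puts an HA tag on the nuclei of cells with Cre. Each of the 15 samples combined tissue punches of 2 mice. After 14 days for the virus, food-trained mice worked for food in sessions of 1 hour for 7 days. Maintenance mice then took cocaine for 5 days at 0.3 mg/kg per infusion and 10 days at 1 mg/kg per infusion, and abstinence mice spent 21 further days in the home cage without it. HA+ nuclei gave 4 food-trained, 3 maintenance and 4 abstinence dopaminergic libraries, and HA- nuclei of food-trained mice gave 4 further libraries, called HA- below. These 4 HA- libraries are the only ones of their population, so cocaine groups can be compared in dopaminergic nuclei alone.

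ZIP proteins carry zinc into the cytosol, from outside the cell or out of organelles, and ZnT proteins carry it the other way, out of the cell or into vesicles and organelles. The metallothioneins Mt1, Mt2 and Mt3 bind zinc in the cytosol. Zinc excess activates the transcription factor MTF1, which binds metal response elements and raises Mt1, Mt2 and the exporter gene Slc30a1. In brain, zinc is packed with glutamate into synaptic vesicles of some neurons by the product of Slc30a3 (ZnT3), while Slc39a4 (ZIP4) is best known for zinc uptake in the intestine, and its loss in humans causes acrodermatitis enteropathica.

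Depth ran from 25813697 to 59046618 counts per library, and 14841 to 23886 genes had a count. Levels are CPM, the counts of a gene relative to the total count of its library after TMM scaling of the 15 libraries. The summed level of 7 dopamine neuron markers was 6336 to 14550 CPM in the 11 dopaminergic libraries and 359 to 582 CPM in the HA- libraries, with no marker at 0 throughout a group. The deposited labels call the HA- nuclei neurons, yet 8 oligodendrocyte markers summed there to 9732 to 23070 CPM, against 1119 to 2794 CPM in dopaminergic libraries. HA- values below are therefore those of a mixed population that includes glia. Because each library is a bulk sample, a lower level can mean fewer cells of a type or less RNA per cell, and these cannot be told apart.

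Slc39a4 was the member that differed most between the populations. Its level in the food-trained dopaminergic libraries was 78.7, 92.1, 99.9 and 150.1 CPM, and in the HA- libraries 4.31, 2.73, 2.73 and 3.48 CPM. The lowest dopaminergic library stood far above the highest HA- library, and the HA- values rested on 117 to 210 counts each, so the gene was detected there. The same HA- libraries held 79.1 to 120 CPM of Slc6a3, and which nuclei gave the Slc39a4 counts was not tested. The fitted difference was 5.00 on the log2 scale (SE 0.31, 95% interval 4.29 to 5.71), or 32.0-fold. The dopamine transporter gene Slc6a3, which the sort follows, differed by 5.02 (SE 0.34) in the same fit. The Slc39a4 gene lies at chr15:76612383-76617384 on the minus strand of GRCm38 and overlaps no annotated gene. Its nearest neighbours, Vps28 and Cpsf1, are 4703 and 4792 bases away.

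**Figure D1:**
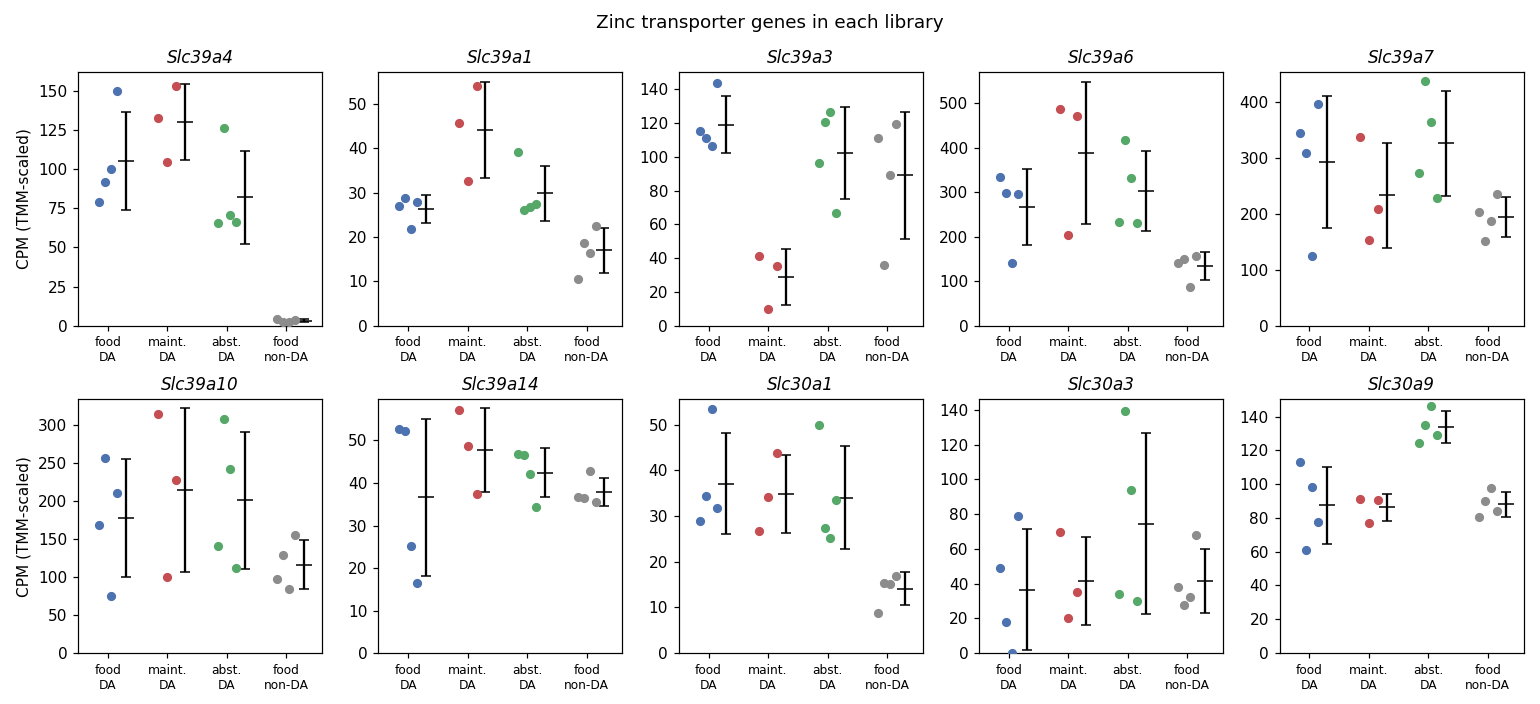
Level of each zinc transporter gene, in TMM-scaled CPM on a linear axis from 0, in food-trained (food), maintenance (maint.) and abstinence (abst.) dopaminergic (DA) libraries and in HA- libraries (non-DA). Points are libraries, and bars are the mean and SD. Slc39a4 lies between 65.4 and 153 CPM in DA libraries and at 4.31 CPM or lower in non-DA libraries, and Slc39a3 is at 41.5 CPM or lower in the 3 maintenance libraries.

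Of the other members, only the exporter gene Slc30a1 also had every dopaminergic library of food-trained mice above every HA- library. Its level was 29.0, 34.4, 53.4 and 31.7 CPM in dopaminergic and 8.81, 15.4, 15.1 and 17.0 CPM in HA- libraries, a difference of 1.41 on the log2 scale (SE 0.34). Of all 19786 genes tested, 6.41% had every dopaminergic library higher. An edgeR quasi-likelihood fit called 2 of the 10 members at an adjusted p under 0.05, Slc39a4 and Slc30a1, both higher, where 12.8% of all genes were called in either direction and 3.63% higher. With libraries of the same replicate number blocked, Slc30a1 was no longer called, Slc39a6 was called, and 775 genes (3.92%) were called in all. Since the members were listed with this contrast known, nothing is read from these counts.

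The importers of the cell surface and of organelles differed less. Slc39a6 (ZIP6), a plasma membrane importer, was at 333, 298, 142 and 295 CPM in food-trained dopaminergic and 142, 151, 88.1 and 156 CPM in HA- libraries, a log2 difference of 1.00 (SE 0.30). Food-trained dopaminergic replicate 3, the shallowest library, was the one that overlapped the HA- range. That library also had the lowest Slc39a7 (124 CPM, against 310 to 396 CPM in the other 3) and the lowest Slc39a10 (75.3 CPM, against 169 to 257 CPM) of its group. Without it, 5 members instead of 2 were called, and the share of all genes called was 18.0%. Without HA- replicate 1 or 3 only 1 member was called, with 9.46% and 10.2% of all genes. Slc39a7 (ZIP7), which releases zinc from the endoplasmic reticulum and Golgi, and Slc39a10 (ZIP10), a plasma membrane importer, differed by 0.60 (SE 0.33) and 0.62 (SE 0.36). Slc39a1 (ZIP1) and Slc39a3 (ZIP3), also importers, differed by 0.64 (SE 0.33) and 0.43 (SE 0.34), and both overlapped between populations.

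Slc39a14 and Slc30a9 had differences near 0, and that of Slc30a3 was undetermined. Slc39a14 (ZIP14), which also carries manganese and iron, differed by -0.04 (SE 0.38), with 16.5 to 52.6 CPM in food-trained dopaminergic and 35.5 to 42.9 CPM in HA- libraries. Slc30a9, a mitochondrial zinc transporter, differed by 0.003 (SE 0.22), from 61.1 to 113 CPM against 80.6 to 97.5 CPM. Slc30a3 was the most variable member, at 49.2, 17.8, 0 and 79.1 CPM in food-trained dopaminergic and 37.8, 27.6, 32.1 and 68.0 CPM in HA- libraries. The log2 difference was -0.17 (SE 1.22), or -1.001 with the replicate block, and its interval, -2.92 to 2.57, covered large differences in both directions. The 0 was in replicate 3, where a count of 0 allows up to 0.108 CPM (3 counts, for counting error only). That library also had the lowest level of its group for both glutamate neuron markers, 5 of 7 microglia, 5 of 8 oligodendrocyte, 3 of 7 astrocyte and 1 of 3 GABA neuron markers, and all 5 vascular markers were at 0 in it. The glutamate neuron markers Slc17a6 and Slc17a7 summed to 160 CPM there, against 520 to 631 CPM in the other 3. The part of these markers in the Slc30a3 value was not tested. The median log2 difference of the 10 members was 0.61, beside -0.21 over all genes tested.

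Levels can be set side by side between genes only per length, here CPM per kilobase of the longest annotated transcript, which is a rough scale. On it the food-trained dopaminergic order began with Slc39a7 (120.6 ± 48.6, SD, n = 4) and Slc39a6 (68.8 ± 22.0), followed by Slc39a4 (38.3 ± 11.3), Slc39a10 (32.4 ± 14.1) and Slc39a3 (31.3 ± 4.43). Slc30a3, Slc30a9 and Slc39a1 came next at 17.5, 15.3 and 11.2, and Slc39a14 and Slc30a1 came last at 7.16 and 7.08. Neighbours in this order were closer than the sum of their SDs, so single ranks are not firm. In HA- libraries Slc39a7 and Slc39a6 again led, at 79.9 ± 14.4 and 34.6 ± 8.08 per kilobase. Slc39a4 had rank 3 of 10 in food-trained dopaminergic and in maintenance libraries, rank 5 in abstinence libraries and rank 10 in HA- libraries, where it reached 1.21 ± 0.27 per kilobase.

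Over all 15 libraries, the genes whose log2 CPM most resembled that of Slc39a4 were Chrna6 (Pearson r = 0.991), Slc10a4 (0.987), Slc18a2 (0.986), Slc6a3 (0.986) and Chrnb3 (0.982), of 18895 genes compared. Slc18a2 encodes the vesicular monoamine transporter, Chrna6 and Chrnb3 encode nicotinic receptor subunits of dopamine neurons, and Slc10a4 encodes a vesicular transporter of monoamine and cholinergic neurons. These values describe the gap between the 11 dopaminergic and 4 HA- libraries more than anything within either. Over the 11 dopaminergic libraries alone, the most similar genes were others, namely Ddah1 (0.902), Glra2 (0.865), Prss12 (0.863), Tspan6 (0.862) and Lrrtm2 (0.862) of 17971 genes. With 1 library left out, the r of Ddah1 ran from 0.874 to 0.930, but only 1 to 4 of the 5 names stayed. The correlation of Slc39a4 with Slc6a3 within these 11 libraries was 0.615. Among the members, it ran from 0.450 for Slc39a6 to -0.488 for Slc30a9.

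Slc39a4 was also set against Slc6a3 as a ratio of counts within each library, a measure chosen after the values were seen. In food-trained dopaminergic libraries there were 3.47, 3.16, 4.401 and 3.34 Slc39a4 counts per 100 Slc6a3 counts. In HA- libraries there were 4.93, 2.28, 3.45 and 4.11, a range that contains the dopaminergic one although both genes were far lower there. During maintenance there were 4.97, 5.47 and 4.95, and in abstinence 2.61, 3.73, 2.47 and 3.78. Every maintenance library lay above every other dopaminergic library. The means were 5.13 ± 0.295 (SD, n = 3) in maintenance, 3.59 ± 0.554 (n = 4) in food training and 3.15 ± 0.708 (n = 4) in abstinence. No test is given, since the ratio was formed with these values in view. Slc6a3 is the locus that carries Cre in these mice, so it is not an independent standard.

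**Figure D2:**
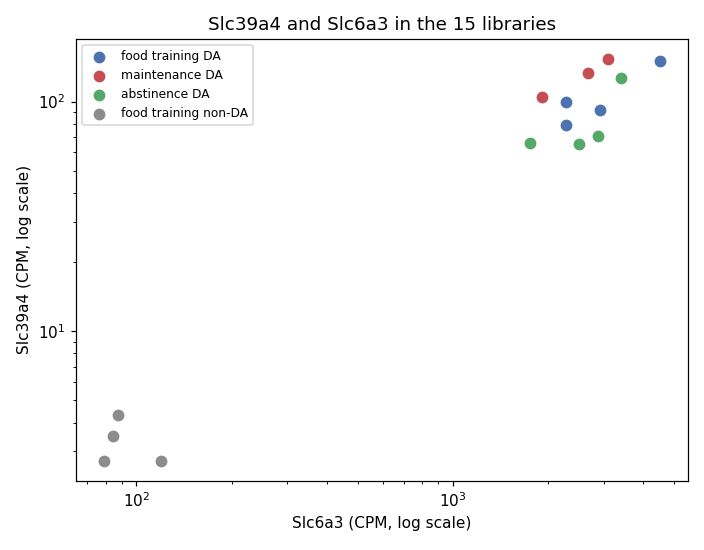
Slc39a4 against Slc6a3 level, both in TMM-scaled CPM on log axes, with 1 point per library for the 15 libraries. The HA- (non-DA) libraries lie between 79.1 and 120.0 CPM of Slc6a3 and at 4.31 CPM of Slc39a4 or lower, and the 3 maintenance libraries lie above the other dopaminergic libraries of similar Slc6a3 level.

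Across the stages of cocaine self-administration, no member passed the threshold in the edgeR fit of the 11 dopaminergic libraries. The comparisons of maintenance and of abstinence with food training share the 4 food-trained libraries, and p-values measure the spread between samples that each pool 2 mice. In maintenance against food training, 0 of 10 members were called and 2 had an unadjusted p under 0.05, beside 0.131% of 19060 genes called and 11.6% unadjusted. In abstinence against food training 0 members were called and 1 had an unadjusted p under 0.05, with 0% and 4.30% of all genes. In abstinence against maintenance 0 were called and 3 had an unadjusted p under 0.05, with 0.178% and 9.92% of all genes. A single test for any difference among stages called 0 members and 0.0839% of all genes, and at an unadjusted p under 0.05 it had 2 members and 7.85% of all genes. With DESeq2, a second tool, there was 1 called member, Slc39a3, in each of these comparisons other than abstinence against food training, where there were 0. DESeq2 called 4.69% of all genes in maintenance against food training, 0.656% in abstinence against food training and 3.84% in abstinence against maintenance. For any stage it called 358 of the 19060 genes.

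Slc39a4 showed no stage change past the threshold. It was at 133, 105 and 153 CPM in maintenance and 65.4, 127, 70.8 and 66.1 CPM in abstinence, beside 78.7 to 150.1 CPM in food training. The means were 130.1 ± 24.4, 82.2 ± 29.7 and 105.2 ± 31.2 CPM (SD), and the ranges of all 3 stages overlapped. Maintenance minus food training was 0.30 on the log2 scale (SE 0.30, 95% interval -0.34 to 0.95, edgeR adjusted p 0.845). Abstinence minus food training was -0.37 (SE 0.28, interval -0.97 to 0.23, adjusted p 1). Abstinence minus maintenance was -0.67 (SE 0.30, interval -1.31 to -0.03, unadjusted p 0.0426, adjusted p 0.492), and it was -0.54 to -1.01 under the 14 alternatives, none with an adjusted p under 0.283. Abstinence replicate 2 was the library that overlapped the maintenance range.

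Slc39a3 had the largest stage differences among the members. It was at 115, 111, 106 and 144 CPM in food training, 41.5, 10.0 and 35.4 CPM in maintenance, and 96.1, 120.3, 126.5 and 66.6 CPM in abstinence. The 3 maintenance libraries were below every other dopaminergic library. Of all genes tested, 4.14% had every maintenance library below every food-trained one, a share that does not take in the abstinence libraries. Maintenance minus food training was -2.05 on the log2 scale (SE 0.42, interval -2.94 to -1.15), with an unadjusted edgeR p of 0.000248 and an adjusted p of 0.0876. Abstinence minus maintenance was 1.82 (SE 0.41, interval 0.93 to 2.704, adjusted p 0.129), where every abstinence library was higher for 7.68% of all genes. The DESeq2 test gave adjusted p-values of 5.44e-05 and 0.00109 for these differences, so the call depended on the tool.

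The low Slc39a3 libraries also shared a measured property. For each library the change of log2 CPM with the GC content of the transcript was fitted as a line over 8353 genes, and its slope was -0.0372, -0.0224 and -0.0377 per percent GC in maintenance. In the other dopaminergic libraries it was -0.0167 to 0.0204, so genes rich in GC read lower in the maintenance libraries. The Slc39a3 transcript has 59.4% GC, second among the members to Slc30a3 at 60.3%. The HA- library with a similarly low slope, replicate 2 at -0.0248, had 36.0 CPM of Slc39a3, against 89.3 to 119 CPM in the other 3 HA- libraries. That library also had the highest summed oligodendrocyte markers of the HA- libraries, 23070 CPM. Slc39a3 did not follow the slope in order. Maintenance replicate 2, at -0.0224, had the lowest level (10.0 CPM), and food-trained dopaminergic replicate 2, at -0.0167, had 110.8 CPM. After a correction for GC, maintenance minus food training was -1.65 (adjusted p 0.220) and abstinence minus maintenance 1.39 (adjusted p 0.346). With a term for low slope, which rests on that one HA- library, they were -0.50 and 0.28 (adjusted p 1 for both). The other members with a high GC content had maintenance minus food training differences of -0.34 for Slc39a7 (57.5% GC, interval -1.16 to 0.48), 0.30 for Slc39a4 (56.9% GC, interval -0.34 to 0.95) and 0.19 for Slc30a3 (60.3% GC). The Slc30a3 interval, -2.26 to 2.63, includes the Slc39a3 difference. Slc39a13 (59.7% GC), a listed zinc gene named after its values were seen, had -0.82 (SE 0.35, unadjusted edgeR p 0.035, adjusted p 0.404). Mt3, another listed gene with a higher GC content (62.3%), had -0.03 (SE 0.30, interval -0.69 to 0.62). The summed oligodendrocyte markers were at 1130 to 1761 CPM in maintenance and 1760 to 2794 CPM in food training, with a lower mean in maintenance for 7 of 8 of them. The means were also lower for 5 of 7 microglia, 2 of 5 vascular, 3 of 7 astrocyte, 3 of 7 dopamine neuron, 1 of 2 glutamate neuron and 1 of 3 GABA neuron markers. The GABA neuron markers summed to 159 to 350.4 CPM in maintenance and 161 to 220.2 CPM in food training, and the part of these markers in the Slc39a3 values was not tested. Low slope and maintenance fall on the same 3 dopaminergic libraries and cannot be told apart among them.

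**Figure D3:**
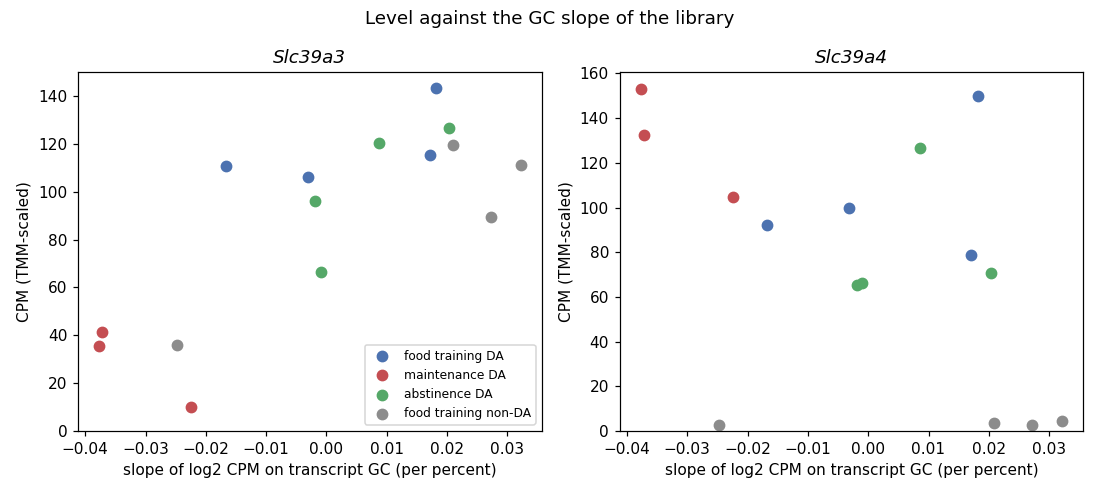
Level of Slc39a3 (left) and Slc39a4 (right), in TMM-scaled CPM, against the GC slope of the same library (change of log2 CPM per percent GC). The 3 maintenance libraries and HA- (non-DA) replicate 2 have slopes of -0.0224 or lower and hold the 4 lowest Slc39a3 levels, while Slc39a4 in the maintenance libraries is not low.

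Slc39a1 and Slc30a9 each had a stage that did not overlap another. Slc39a1 was at 45.7, 32.7 and 54.1 CPM in maintenance and 26.9, 28.9, 21.7 and 28.0 CPM in food training, so every maintenance library was higher, as for 4.31% of all genes. The difference was 0.74 on the log2 scale (SE 0.33, interval 0.04 to 1.44, edgeR adjusted p 0.414). Abstinence libraries, at 39.2, 26.0, 26.7 and 27.5 CPM, overlapped maintenance. Slc30a9 was at 124.5, 135, 146 and 129 CPM in abstinence, above 61.1 to 113 CPM in food training and 77.2 to 91.2 CPM in maintenance. Its differences were 0.60 (SE 0.23, unadjusted p 0.0193, adjusted p 1) against food training and 0.63 (SE 0.25, unadjusted p 0.0239, adjusted p 0.459) against maintenance. Every abstinence library was higher for 2.40% of all genes against food training and 7.68% against maintenance. The abstinence level of Slc30a9 also lay above the HA- range, 80.6 to 97.5 CPM, but abstinence and HA- libraries differ in both stage and population and were not compared.

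The other 6 members had overlapping stages throughout and differences whose 95% intervals included 0. Slc39a6 ran from 203 to 487 CPM in maintenance and 232 to 418 CPM in abstinence, with log2 differences of 0.53 (SE 0.36) and 0.17 (SE 0.33) from food training. Slc39a7 had differences of -0.34 (SE 0.38) and 0.14 (SE 0.35), and Slc39a10 of 0.26 (SE 0.46) and 0.16 (SE 0.42). Maintenance replicate 2 had the lowest level of all 3 of these genes in its group, as food-trained replicate 3 had in its own. Slc39a14 differed by 0.37 (SE 0.40) and 0.20 (SE 0.37), and Slc30a1 by -0.10 (SE 0.37) and -0.13 (SE 0.34). Slc30a3, at 34.1, 139, 93.9 and 30.2 CPM in abstinence, differed by 0.19 (SE 1.14) and 1.01 (SE 1.06), with intervals of -2.26 to 2.63 and -1.28 to 3.30 that leave its stage differences undetermined. The members' median log2 differences were 0.22, 0.16 and -0.07 in maintenance against food training, abstinence against food training and abstinence against maintenance, beside -0.01, 0.04 and 0.05 over all genes.

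**Figure D4:**
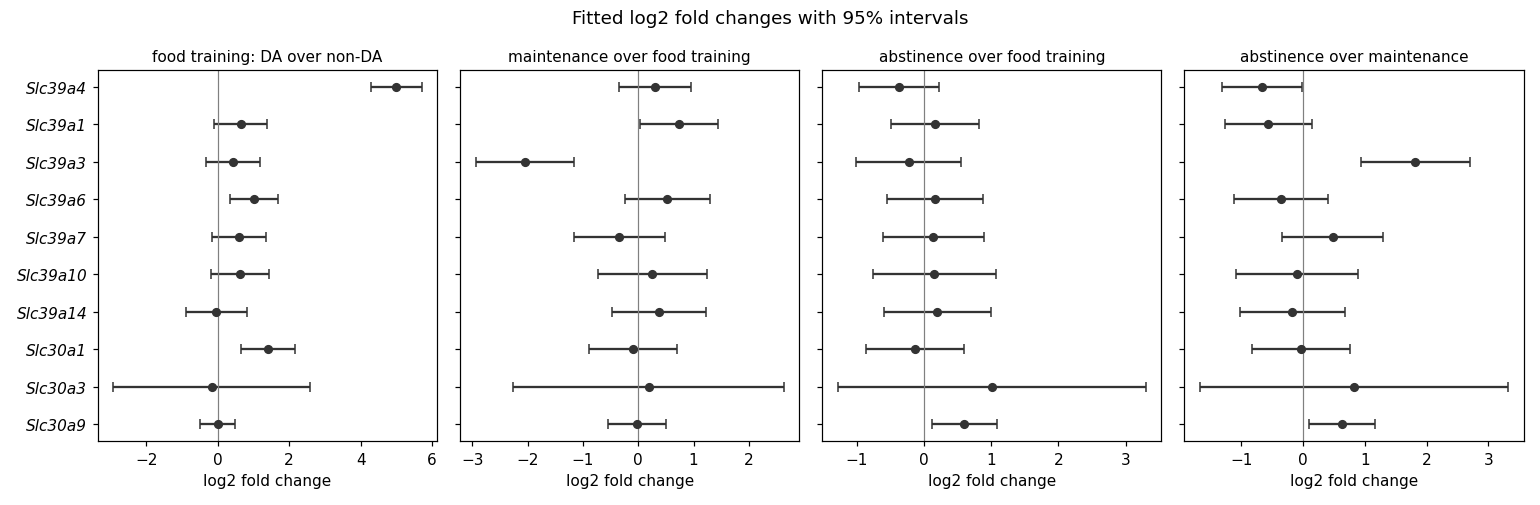
Fitted log2 fold change (point) and 95% interval (bar) of each zinc transporter gene from edgeR, in the population comparison at food training and in the 3 stage comparisons of dopaminergic libraries; x axes differ between panels. Slc39a4 at 5.00 lies apart in the population comparison, which is a description, and Slc39a3 lies apart at -2.05 and 1.82 in the stage comparisons that involve maintenance.

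Overlapping genes limit some of these values, since it is not given whether counting used strand. Slc39a6 overlaps Elp2 on the opposite strand, and Elp2 itself was at 35.6 to 89.6 CPM in food-trained dopaminergic and 94.1 to 126 CPM in HA- libraries, an order opposite to that of Slc39a6. Across stages the mean of Elp2 was 61.3, 99.5 and 110.7 CPM in food training, maintenance and abstinence, so that, as for Slc39a6, both later stages had a higher mean than food training. The part of Elp2 reads in the stage differences of Slc39a6 was not tested. Slc30a1 overlaps the antisense transcript 1700034H15Rik, which reached at most 4.81 CPM in any library. Slc39a7 overlaps Gm20427, and Slc39a10 overlaps Gm28151 and Gm37393, all on the same strand as the transporter gene, where strand would not separate the reads. Slc30a3 overlaps Gm9924 and Dnajc5g on the opposite strand, and Dnajc5g had no count in any library, where 0 counts allow at most 0.0518 to 0.108 CPM, depending on the library.

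A list of 21 further zinc genes held the remaining transporters, the metallothioneins, Mtf1, the zinc receptor gene Gpr39 and the vesicular zinc transporter gene Tmem163. In the population comparison 19 were tested and 2 passed the threshold, 1 higher and 1 lower in dopaminergic libraries, beside 12.8% of all genes called in either direction, 3.63% higher and 9.17% lower. The list's median was 0.43. Slc39a11 (ZIP11), an intracellular ZIP protein, was at 113, 101, 90.1 and 119 CPM in dopaminergic and 40.7, 27.5, 24.4 and 45.3 CPM in HA- libraries. Every dopaminergic library was higher, as for 6.41% of all genes. The log2 difference was 1.62 (SE 0.25), or 3.08-fold higher, with an edgeR adjusted p of 0.0067. Slc39a11 passed under all 14 alternatives, the replicate block included. Slc39a12 (ZIP12), a ZIP protein of brain, was at 40.7, 43.8, 37.8 and 79.8 CPM in dopaminergic and 140.0, 337, 81.9 and 147 CPM in HA- libraries. The log2 difference of Slc39a12 was -1.79 (SE 0.44, adjusted p 0.0278), and every dopaminergic library was lower. Of all genes, 19.7% had every dopaminergic library lower. The call was lost with the replicate block (adjusted p 0.0604) and without food-trained dopaminergic replicate 1, 2 or 3 or HA- replicate 1 (0.0513 to 0.065). HA- replicate 2, the highest Slc39a12 library, also had the highest summed level of 7 astrocyte markers, 4032 CPM against 1996 to 2851 CPM in the other HA- and 1665 to 2081 CPM in the food-trained dopaminergic libraries. It was highest as well for oligodendrocyte (23070 CPM), microglia (3108 CPM) and vascular (407 CPM) markers. Of the 7 astrocyte markers, 5 had a lower mean in food-trained dopaminergic than in HA- libraries, among them Gfap with nearly equal means, while Aldoc and Aldh1l1 had a higher one. The part of these markers in the Slc39a12 result was not tested.

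The remaining listed genes with the highest mean CPM, a scale that favours long transcripts, did not pass in that comparison. Slc30a5 (ZnT5), which loads the early secretory pathway, had a log2 difference of 0.71 (SE 0.26, edgeR adjusted p 0.128), and Slc39a9 (ZIP9) one of 0.26 (SE 0.37, adjusted p 0.758). Mt1 was at 177, 93.9, 97.9 and 108 CPM in food-trained dopaminergic and 54.5, 93.8, 66.5 and 61.5 CPM in HA- libraries, a difference of 0.80 (SE 0.27, adjusted p 0.0947). The groups met almost exactly, with 93.88 against 93.84 CPM at their edges. Mt3 and the zinc sensor gene Mtf1, named after their values were seen, also had each dopaminergic library higher, with differences of 0.78 (SE 0.28, adjusted p 0.123) and 0.55 (SE 0.21, adjusted p 0.137). In all, 4 of the 19 listed genes tested had every dopaminergic library higher, beside 6.41% of all genes.

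None of the 18 listed genes tested across stages passed the edgeR threshold in any stage comparison, and 3, 1 and 2 had an unadjusted p under 0.05 in maintenance against food training, abstinence against food training and abstinence against maintenance, beside 11.6%, 4.30% and 9.92% of all genes. Mt1 was at 85.7, 44.1, 68.8 and 59.9 CPM in abstinence, below all 4 food-trained dopaminergic libraries, with a difference of -0.89 (SE 0.30, interval -1.54 to -0.23, unadjusted p 0.0114, edgeR adjusted p 1). Mt2, at 7.79 to 12.3 CPM in abstinence and 12.7 to 19.7 CPM in food training, also did not overlap, at -0.72 (SE 0.52, adjusted p 1). Every abstinence library was lower for 0.944% of all genes. The summed astrocyte markers were at 1256 to 1735 CPM in abstinence and 1665 to 2081 CPM in food training, and the mean was lower in abstinence for 6 of 7 astrocyte, 8 of 8 oligodendrocyte, 7 of 7 dopamine neuron, 3 of 7 microglia, 2 of 5 vascular, 0 of 3 GABA neuron and 0 of 2 glutamate neuron markers. Their part in the Mt1 and Mt2 values was not tested. The exporter gene Slc30a7, which supplies zinc to the Golgi, was at 79.3, 64.5 and 68.5 CPM in maintenance and 9.54 to 43.2 CPM in food training, a difference of 1.28 (SE 0.45, adjusted p 0.356). Mt2 and Slc30a7 were named after their values were seen. Mt4 had no count in any library, and Slc39a5 had too few to be tested, as had Slc30a8 in the stage comparisons.

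The promoters of 3 genes that MTF1 is known to regulate, Slc30a1, Mt1 and Mt2, are shown as a description. No test compared the levels of these genes with one another. Mt1 and Mt2, but not Slc30a1, had every abstinence library below every food-trained one, and none of the 3 was called there. Between populations Slc30a1 and Mt1 had every dopaminergic library higher, as for 6.41% of all genes, with Mt1 at 93.88 against 93.84 CPM at the edges. Mt2 overlapped, at 12.7 to 19.7 CPM in food-trained dopaminergic and 8.66 to 19.8 CPM in HA- libraries, a log2 difference of 0.43 (SE 0.41, edgeR adjusted p 0.614). The 250 bases before the start of each gene come from RefSeq on GRCm38.p6, at chr1:191906531-191906780 for Slc30a1, chr8:94178839-94179088 for Mt1 and chr8:94172368-94172617 for Mt2, all on the plus strand. Capitals mark matches to the core of the metal response element, TGCACNC or TGCGCNC, on either strand, so that a match on the minus strand reads GNGTGCA or GNGCGCA.
Slc30a1: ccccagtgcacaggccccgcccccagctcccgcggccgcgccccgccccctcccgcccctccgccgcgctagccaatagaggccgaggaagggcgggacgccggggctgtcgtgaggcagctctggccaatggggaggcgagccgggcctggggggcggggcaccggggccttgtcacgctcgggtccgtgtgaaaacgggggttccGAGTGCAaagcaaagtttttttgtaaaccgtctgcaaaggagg
Mt1: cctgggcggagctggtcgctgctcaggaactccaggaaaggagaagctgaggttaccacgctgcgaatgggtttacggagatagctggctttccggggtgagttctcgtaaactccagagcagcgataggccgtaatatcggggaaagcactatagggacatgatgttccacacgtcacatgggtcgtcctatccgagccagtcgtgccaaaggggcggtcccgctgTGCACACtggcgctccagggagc
Mt2: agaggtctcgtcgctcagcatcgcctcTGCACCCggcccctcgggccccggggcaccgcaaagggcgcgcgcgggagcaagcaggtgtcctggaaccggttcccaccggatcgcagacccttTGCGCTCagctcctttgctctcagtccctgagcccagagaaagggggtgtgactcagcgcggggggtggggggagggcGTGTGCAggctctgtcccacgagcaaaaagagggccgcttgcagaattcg
Slc30a1 had 1 match, 43 bases before its start, Mt1 had 1 at 23 bases, and Mt2 had 3 at 223, 128 and 50 bases. Of 32851 promoters of the same length, 21.4% held at least 1 match. Among the 7 members with a promoter entry, Slc39a3 had 1 match at 144 bases and 1 of the 2 Slc30a3 promoters had 1 at 77 bases, while Slc39a1, Slc39a7, Slc39a10 and Slc30a9 had none. Slc39a4, Slc39a6 and Slc39a14 had no entry. A match is a description of the letters only. Letters outside these 250 bases were not searched, so the counts are not those of a whole promoter and do not rank the genes.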

How the data were processed

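Counts per gene were deposited by the authors as 1 table of 15 libraries, made with the NEBNext Single Cell/Low Input kit per the labels' protocols, with no molecular identifiers. The submitters' processing notes name Trim Galore 0.6.7, cutadapt 1.18, STAR 2.7.10a, StringTie 2.1.5, DESeq2 1.38.3 and mm10/GRCm38; annotation and use of strand are not given in the sources used here. A second deposited table of 10 of these libraries, named as normalized by the authors, held the same whole numbers as the count table (0 cells differed) and was not used. Counts include PCR copies, so floors cover counting error only.

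Counts were scaled by TMM and tested with edgeR 4.0.16 in R 4.3.3 (glmQLFit, glmQLFTest, filterByExpr, two-sided, Benjamini-Hochberg over all genes tested, threshold 0.05). The population comparison used the 8 food-trained libraries, and stage comparisons used all 11 dopaminergic libraries. Likeness is Pearson r of log2 CPM with a prior count of 2, over genes with a mean of at least 20 counts, predicted genes left out. Transcript length and GC are those of the longest GENCODE M21 transcript on GRCm38; 8641 of 35976 symbols had no GC value. The fits were tested on simulated data.

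Same-numbered dopaminergic and HA- food-trained libraries deviated together weakly over 8532 genes (r = 0.116, 0.127, 0.262 and 0.243). Maintenance and food-trained replicate 1, from different mice, reached 0.11, so pairing is possible but not settled by these values. The population values printed come from the fit without the block, which takes all libraries as independent. Blocked values stand beside them where a call changed. Alternatives were DESeq2 1.42.0 (size factors and test), no filter on low counts, the replicate block, a GC correction, a fit of all 15 libraries, a term for low GC slope and leaving out each library. Genes named beyond the members were listed zinc genes past the threshold, the 4 of them with the highest mean CPM, the genes most like Slc39a4 and cell type markers; others are said to be named after their values were seen. The members and lists were chosen with earlier results of these data known.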

Additional observations from a re-analysis of the deposited data

Results flagged for a closer look

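Of 30 sets of 4 libraries (a member in a group), 3 held a library far from the other 3 by Dixon's ratio of gap to range, where chance alone gives about 1 in 20. Slc39a4 in abstinence replicate 2 was at 126.6 CPM, with the other abstinence libraries at 65.4 to 70.8 CPM (ratio 0.912). Slc39a1 in abstinence replicate 1 was at 39.2 CPM, with the others at 26.0 to 27.5 CPM (ratio 0.890). Slc39a14 in HA- replicate 3 was at 42.9 CPM, with the others at 35.5 to 36.6 CPM (ratio 0.853).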

How the results depend on the processing

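No stage difference of a member was called by edgeR under any alternative. The DESeq2 test called 1 member in maintenance against food training, in abstinence against maintenance and for any stage. Over all genes it called 3883 of 19786 in the population comparison. Of 19060 genes it called 894 in maintenance against food training and 125 in abstinence against food training. It called 732 of them in abstinence against maintenance and 358 for any stage. In the same order edgeR called 2534, 25, 0, 34 and 16. With the replicate block the counts were 775, 0, 0, 2 and 0 in the same order. Stage libraries share only a number (same-number r from -0.351 to 0.110). A fit of all 15 libraries called 15 genes in abstinence against maintenance and 9 for any stage, a term for low GC slope called 0 in maintenance against food training, 1 in abstinence against maintenance and 0 for any stage, and a GC correction called 5 for any stage.

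In the population comparison Slc39a6 was also called with DESeq2 size factors and with the DESeq2 test. Of 19786 genes, these settings called 2571 and 3883. Leaving out 1 library gave 1 to 5 called members in the population comparison, where 9.46% to 18.0% of all genes (1900 to 3740) were called. It gave 5 to 78 genes in maintenance against food training (5 without maintenance replicate 1, 7 without replicate 3, 78 without replicate 2, 43 without food-trained replicate 3, 12 without food-trained replicate 4), 6 to 73 in abstinence against maintenance and 1 to 23 for any stage. The genes most like Slc39a4 in dopaminergic libraries kept 1 to 4 of 5 names.

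Signs of small, uncalled differences turned, and the cause was not tested. In the population comparison the alternatives gave -0.26 to 0.20 for Slc39a14, -1.001 to 0.26 for Slc30a3 and -0.14 to 0.14 for Slc30a9. In maintenance against food training Slc39a7 became 0.10 with the low-slope term, and leaving out 1 library gave -0.13 to 0.56 for Slc39a10, -0.28 to 0.14 for Slc30a1, -0.39 to 0.88 for Slc30a3 and -0.19 to 0.12 for Slc30a9. In abstinence against food training it gave -0.039 to 0.29 for Slc39a6, -0.11 to 0.31 for Slc39a7, -0.11 to 0.39 for Slc39a10, -0.047 to 0.42 for Slc39a14 and -0.39 to 0.10 for Slc30a1. In abstinence against maintenance Slc39a10 became 0.082 with the GC correction and 0.12 with the low-slope term (-0.41 to 0.29 leaving out 1 library). Slc30a1 became 0.02 with the replicate block, 0.056 with the GC correction and 0.16 with the low-slope term (-0.29 to 0.15 leaving out 1 library), and Slc39a14 became 0.067 with the block.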
